A study of Mus musculus with 15 samples.

Results

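The 10 transcripts described here encode the core of the integrated stress response in mouse C2C12 myoblasts: Atf4, Ddit3, Trib3, Chac1, Asns, Ppp1r15a, Ppp1r15b, Eif2ak3, Cebpb and Cebpg. They were picked by gene symbol as the probe sets of the array that carry 1 of these symbols and no other. All 10 genes were found among 25175 probe sets, and each is represented by 1 probe set. Ppp1r15b has a further probe set, which was dimmer at 0 min and is described separately. All 10 were among the 12544 probe sets counted as expressed, a call that needed a signal brighter than the array median in 2 or more of the 3 samples taken at 0 min.

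C2C12 is a mouse skeletal myoblast line, and the cells used were the LKO1 line, which carries an empty lentiviral vector and was kept in puromycin. Proliferating cells below 70% confluency were given 8 µg/mL actinomycin D, an inhibitor of transcription. The first sample, named 0 min, was collected after 30 min in the drug, and further samples were taken at 10, 50, 110 and 230 min. Total RNA from 3 replicate time courses was hybridized to Affymetrix Mouse Gene 1.0 ST arrays, 1 array for each of the 15 samples. The comparison asks how fast each transcript is lost once transcription is blocked. Every array, including 0 min, comes from treated cells, so no value for untreated cells was analysed here. The time courses were run in triplicate, but the sources used here do not say whether each came from a culture of its own, so how far the spread behind each p-value is technical is not known. The arrays measure pooled RNA, in which fewer cells of a type and less RNA per cell cannot be told apart.

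Each value is a probe set's signal divided by the 5th percentile of its own array, so a value near 1 lies at the dim end of the array. Probe sets differ in brightness, so only changes in time, and not levels, are compared between genes. The label of the cells was checked against marker genes. All 6 myoblast markers were expressed, among them Myod1 at 27.3 ± 2.74 (SD, n = 3) and Des at 42.3 ± 7.73, and 4 of 5 markers of differentiated myotubes were also above the array median. None of 3 adipocyte and 2 endothelial markers was expressed, and of 2 leukocyte markers Ptprc was not while Cd68, at 2.90 ± 0.220, was. The brighter probe sets dimmed relative to the 5th percentile, for the most part between 50 and 110 min. The 75th percentile of the array was 7.80 to 9.81 at 0 min and 7.36 to 7.84 at 50 min. It was 3.90 to 5.46 at 110 min and 2.89 to 4.62 at 230 min. The 110 min array of replicate 1 (75th percentile 3.90) and the 230 min array of replicate 2 (2.89) were the lowest of their times.

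The integrated stress response lowers general protein synthesis through phosphorylation of the translation factor eIF2. 4 kinases do this, each answering to a different stress, and Eif2ak3 encodes PERK, the kinase that responds to unfolded protein in the endoplasmic reticulum. Translation of Atf4 mRNA rises when eIF2 is phosphorylated, and the ATF4 protein, a bZIP transcription factor, then switches on genes of amino acid supply and of the stress response itself. ATF4 binds DNA together with C/EBP partners such as the products of Cebpb and Cebpg, at composite C/EBP-ATF elements. Ppp1r15a (GADD34) and Ppp1r15b (CReP) encode the subunits that direct protein phosphatase 1 to eIF2 and so end the response, the former being induced by stress and the latter made constitutively.

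The composite element is shown because it is the shared binding sequence of the transcription factors in the group. The letters TGATGNAA, with N any base, were searched on both strands of RefSeq promoter windows of 300 bases (GRCm38.p6; 250 bases before and 50 after the annotated start). Windows were given for 9 of the 10 genes, and 3 of them held a match. Among all 32851 windows 3.97% held one. The matches are shown in capitals with neighbouring bases in lower case, each read 5′ to 3′ on the strand of its gene.
Asns: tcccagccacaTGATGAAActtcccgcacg
Chac1: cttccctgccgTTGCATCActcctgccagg
Trib3: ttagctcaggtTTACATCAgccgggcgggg
The Asns stretch lies at chr6:7693214-7693243 on the minus strand, and its match begins 23 bases before the start and reads along the gene. The Chac1 stretch lies at chr2:119351038-119351067 on the plus strand, with a match 193 bases before the start that reads on the opposite strand. The Trib3 stretch lies at chr2:152344028-152344057 on the minus strand, and its match, also on the opposite strand, begins 14 bases after the start. A match is a description of these letters only.

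**Figure D1:**
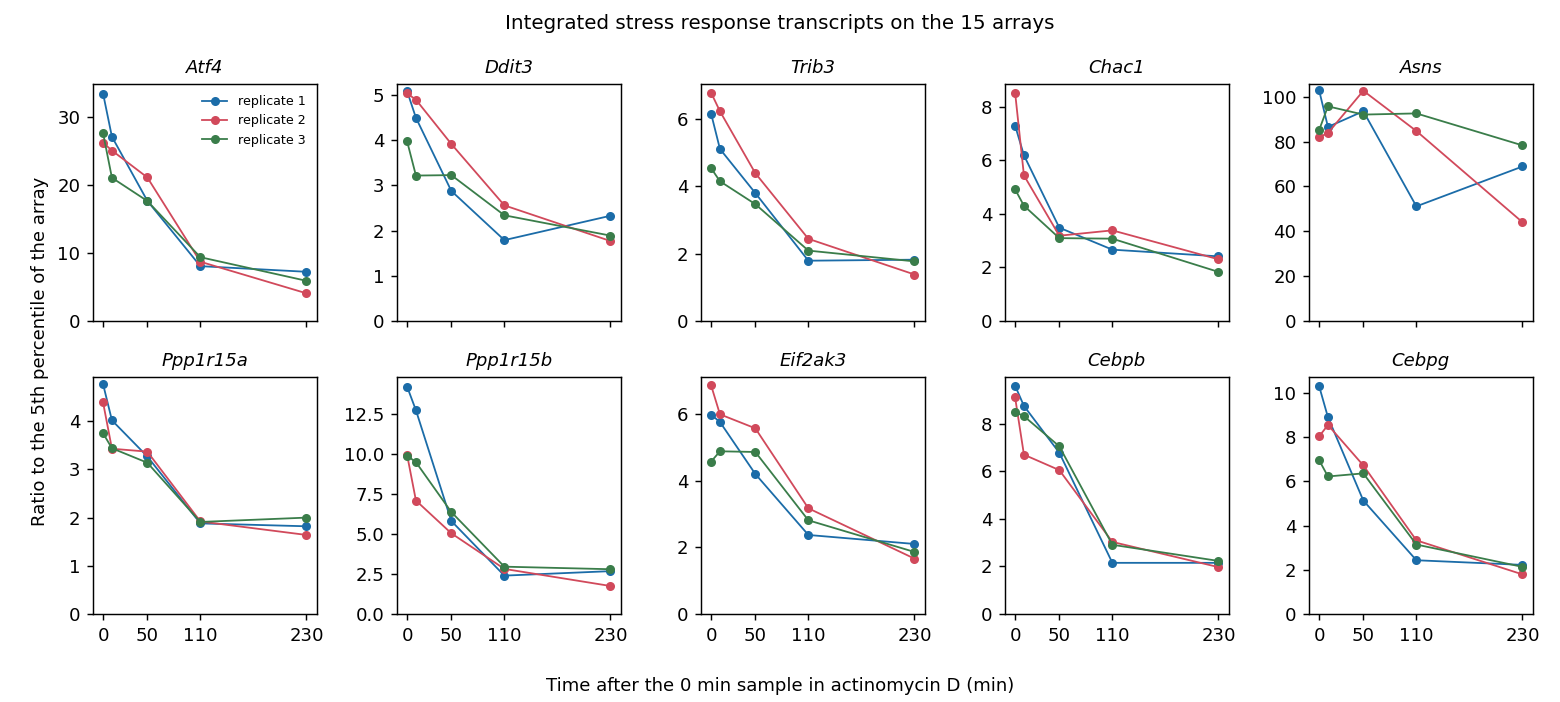
Signal of each transcript (ratio to the 5th percentile of the array, vertical axis starting at 0 and scaled for each gene) against time in min after the 0 min sample, with 1 line for each of the 3 replicate time courses. The Atf4 lines fall from 26.3 to 33.5 at 0 min to 4.07 to 7.24 at 230 min, while the Asns lines still overlap at 110 min.

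All 10 transcripts fell over the time course by the linear trend of log2 signal in time (limma, adjusted over all expressed probe sets), at a median slope of -0.46 log2 per hr. Falling was general on these arrays: 96.4% of the expressed probe sets (12097 of 12544) passed the same test in the same direction, with a median of -0.25. The count of 10 is therefore close to the background, and the information lies in the rates. These ranged from -0.63 log2 per hr for Atf4 (SE 0.053), steeper than which were 1.56% of expressed probe sets, to -0.15 for Asns (SE 0.052), steeper than which were 88.7%. Atf4 was bright at 0 min, with a mean of 29.1 where the 75th percentile of the arrays was 7.80 to 9.81. Dimmer probe sets had less room to fall before the dim end. How far the rank of Atf4 depends on its brightness was not tested. When each array was instead divided by its 75th percentile, the median of all expressed probe sets moved to 0.07 and that of the 10 transcripts to -0.14, with 6 that fell, 1 that rose (Asns) and 3 that did not pass (Chac1, Ddit3 and Ppp1r15a). Of all expressed probe sets 1964 then fell and 6272 rose, against 4741 and 246 with division by the median and 2997 and 3669 with quantile normalization.

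Atf4, the central transcription factor of the response, fell steadily in all 3 time courses. Its signal was 33.5, 26.3 and 27.6 in replicates 1, 2 and 3 at 0 min, 27.1, 25.1 and 21.1 at 10 min, and 17.7, 21.1 and 17.7 at 50 min. It was then 8.07, 8.72 and 9.39 at 110 min, and 7.24, 4.07 and 5.91 at 230 min. The 50 min arrays were already below every 0 min array, and the 50, 110 and 230 min groups did not overlap one another. How many of all expressed probe sets separated in this way was not counted, here or for the genes below. Such separation is therefore not shown to be particular to these genes. By limma 1.99%, 84.8% and 94.3% of expressed probe sets were lower than at 0 min at 50, 110 and 230 min. At 230 min 19.5% ± 3.47 (SD, n = 3) of the 0 min signal was left, a log2 change of -2.37 (SE 0.21; adjusted p = 1.38e-18, limma). A first-order decay curve gave half-lives of 64.1, 83.8 and 87.9 min, with a mean of 78.6 ± 12.7 min. Each of the 3 fits met both criteria for a reliable half-life: a p-value of the fit under 0.05 and a 95% confidence interval narrower than 2 times the half-life.

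Cebpb and Cebpg encode C/EBP family bZIP proteins that pair with ATF4. Cebpb gave 9.60, 9.11 and 8.49 at 0 min, 6.78, 6.05 and 7.05 at 50 min, and 2.15, 1.97 and 2.23 at 230 min. Cebpg gave 10.3, 8.03 and 6.96 at 0 min, 5.13, 6.72 and 6.36 at 50 min, and 2.22, 1.79 and 2.13 at 230 min. For both genes all 50 min arrays lay below all 0 min arrays, and the 230 min arrays lay lower still with no overlap. The trend was -0.57 log2 per hr for Cebpb (SE 0.055) and -0.55 for Cebpg (SE 0.053), and 23.4% ± 2.49 and 24.8% ± 5.03 of the 0 min signal remained at 230 min. The slope of Cebpb minus that of Cebpg was -0.02 on average and -0.02, 0.05 and -0.08 in the 3 time courses (exact permutation test, adjusted p = 0.669), so no difference beyond the spread was found. Half-lives were 86.9 ± 12.1 min for Cebpb and 94.9 ± 34.2 min for Cebpg, each meeting the criteria in 2 of 3 replicates.

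Ddit3, which encodes CHOP, the ATF4-induced bZIP factor linked to cell death under prolonged stress, fell more slowly. It gave 5.09, 5.04 and 3.98 at 0 min, 2.88, 3.92 and 3.23 at 50 min, and 2.33, 1.77 and 1.89 at 230 min. The 50 min arrays lay just below the lowest 0 min array, and the 230 min arrays lay below all of the 50 min arrays. At 230 min 42.8% ± 6.70 of the 0 min signal was left. The trend of -0.32 log2 per hr (SE 0.052; adjusted p = 1.51e-07, limma) was less steep than that of Atf4 in each time course, with a slope difference of -0.28, -0.33 and -0.30 for Atf4 minus Ddit3 (exact permutation test, adjusted p = 0.000241). The half-life of Ddit3, 158 ± 49.1 min, met the criteria in 1 replicate. Its signal ended nearer the dim end of the array than that of Atf4, and the difference depended on this. With the 5th percentile of the array subtracted as a fixed floor, half-lives of Ddit3 were 58.3, 88.2 and 129 min in replicates 1, 2 and 3. Those of Atf4 were then 58.5, 78.1 and 80.3 min, so Ddit3 was not the slower in replicate 1.

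Trib3 encodes a pseudokinase induced by ATF4 and CHOP that dampens their activity. Its signal was 6.16, 6.78 and 4.54 at 0 min, 3.80, 4.39 and 3.47 at 50 min, and 1.82, 1.38 and 1.77 at 230 min. No 50 min array reached the lowest 0 min array, and the 230 min arrays lay close to the dim end of the array. The trend was -0.48 log2 per hr (SE 0.053), with 29.6% ± 9.32 left at 230 min and a half-life of 103 ± 31.0 min that met the criteria in 2 replicates.

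Chac1, a glutathione-degrading enzyme of the ATF4 and CHOP branch, was already lower at 50 min. It gave 7.29, 8.52 and 4.91 at 0 min, 6.18, 5.43 and 4.30 at 10 min, and 3.48, 3.18 and 3.09 at 50 min. It gave 2.66, 3.38 and 3.07 at 110 min and 2.41, 2.30 and 1.83 at 230 min. The 50 min arrays lay well below the 0 min arrays, whereas the 50 and 110 min groups overlapped. The 50 min signal was 49.3% ± 12.9 of that at 0 min, a log2 change of -1.05 (SE 0.21; adjusted p = 0.000558, limma). The 230 min arrays lay below all of the 50 min arrays, with 32.4% ± 5.17 left. A single exponential met the criteria in none of the 3 replicates, and its half-life was 116 ± 41.4 min.

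Asns, which encodes asparagine synthetase and is a classical ATF4 target, was the slowest of the 10 to fall. Its signal was 103, 81.9 and 85.1 at 0 min, 86.5, 83.8 and 95.7 at 10 min, and 93.5, 103 and 92.1 at 50 min. It was 51.1, 84.7 and 92.6 at 110 min and 68.9, 44.0 and 78.3 at 230 min. The groups from 0 to 110 min overlapped, the 230 min arrays lay below every 0 min array, and the 2 lowest Asns values, 51.1 and 44.0, came from the 2 arrays whose 75th percentiles were lowest for their times. At 230 min 70.9% ± 19.4 remained (log2 change -0.53, SE 0.22; adjusted p = 0.0180, limma). The trend of -0.15 log2 per hr (adjusted p = 0.00532, limma) did not hold without the 230 min array of replicate 2 (-0.09, adjusted p = 0.134), without both low arrays (-0.08, adjusted p = 0.0635) or without replicate 2 (-0.11, adjusted p = 0.134), and it turned to 0.17 (adjusted p = 0.000211) on the scale of the 75th percentile. The change at 230 min passed neither without the 230 min array of replicate 2 (-0.27, adjusted p = 0.239) nor without both low arrays (-0.31, adjusted p = 0.0716). The fitted half-lives of 317, 321 and 1267 min had no upper confidence bound, so no half-life can be given for this transcript.

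The mRNAs of the regulatory subunits that dephosphorylate eIF2 were lost at different rates by the brightest probe set of each. Ppp1r15b, the constitutive subunit, gave 14.2, 9.96 and 9.91 at 0 min, 5.82, 5.05 and 6.38 at 50 min, 2.40, 2.82 and 2.96 at 110 min, and 2.68, 1.75 and 2.80 at 230 min. Its 50 min arrays lay far below its 0 min arrays, and its 110 and 230 min groups overlapped near the dim end. Ppp1r15a, the stress-induced subunit, gave 4.77, 4.39 and 3.75 at 0 min, 3.27, 3.37 and 3.14 at 50 min, 1.88, 1.92 and 1.91 at 110 min, and 1.82, 1.64 and 2.00 at 230 min. Its 50 min arrays also lay below the 0 min arrays, by a smaller distance, and its 110 and 230 min groups overlapped. At 50 min 52.0% ± 11.8 of Ppp1r15b and 76.4% ± 7.60 of Ppp1r15a was left, and at 230 min 21.6% ± 5.84 and 42.9% ± 9.00.

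The slope of Ppp1r15a minus that of Ppp1r15b was 0.29, 0.26 and 0.26 log2 per hr in the 3 time courses, so Ppp1r15b fell faster in each (exact permutation test, adjusted p = 0.000343). The difference was 0.25 when 1 was subtracted from every ratio before the log, a change of scale that takes the dim end of the array as 0 (adjusted p = 0.00197, exact permutation test). Ppp1r15b had a mean half-life of 64.5 ± 19.6 min, against 158 ± 40.4 min for Ppp1r15a, whose fits met the criteria in no replicate. The further probe set of Ppp1r15b did not give the same rate. It gave 4.19, 3.63 and 3.01 at 0 min and 2.00, 1.61 and 1.77 at 230 min, with 50.3% ± 7.56 left and a half-life of 226 ± 48.0 min that met the criteria in no replicate. With the 2 probe sets averaged, the slope difference between the subunits was 0.15 (adjusted p = 0.00286, exact permutation test). By its dimmer probe set alone Ppp1r15b was not the faster of the subunits: 50.3% of it was left at 230 min against 42.9% of Ppp1r15a, a difference that was not tested. Both the size and the direction of the difference thus depend on the probe set used for Ppp1r15b.

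Eif2ak3, the PERK kinase at the head of the pathway, gave 5.98, 6.86 and 4.57 at 0 min, 4.20, 5.57 and 4.86 at 50 min, and 2.10, 1.66 and 1.86 at 230 min. The 0 and 50 min groups overlapped, and the 230 min arrays lay below both. Its trend was -0.44 log2 per hr (SE 0.051), 33.3% ± 8.39 was left at 230 min, and the half-life of 131 ± 31.6 min met the criteria in 2 replicates.

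**Figure D2:**
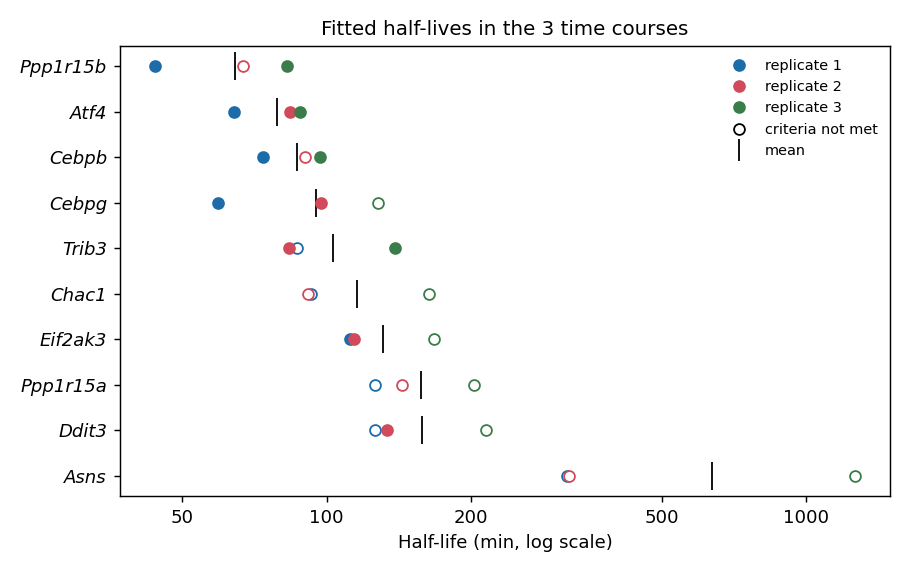
Half-life in min (horizontal, log scale) of each of the 10 transcripts in each of the 3 time courses, with the mean as a black bar; open points did not meet the criteria for a reliable half-life. Ppp1r15b and Atf4 have the shortest means, 64.5 and 78.6 min, and the Asns fits, at 317 to 1267 min, had no upper confidence bound.

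A reliable half-life, one that met the criteria in at least 2 replicates, was obtained for 6 of the 10 transcripts (Ppp1r15b, Atf4, Cebpb, Cebpg, Trib3 and Eif2ak3), where 11.2% of expressed probe sets (1400 of 12544) had one. Their means ran from 64.5 to 131 min, all below the median of 132 min over the probe sets with a reliable half-life. That median covers only probe sets that met the criteria. The criteria were met by 4.37%, 24.3% and 22.3% of expressed probe sets in replicates 1, 2 and 3. The paper, with another filter for expression, reported many more reliable half-lives and a longer median under criteria worded alike. The reason for that gap was not tested. The half-lives of the 6 transcripts hold for the deposited scale only. With arrays divided by their median the mean half-life of Atf4 was 117 min, that of Ppp1r15b 99.9 min and that of Eif2ak3 235 min, and with division by the 75th percentile they were 169.9, 154 and 492 min. Without both low arrays 2 of the 6, Trib3 and Cebpb, had a reliable half-life. How many of all expressed probe sets kept one was not counted. The signals of several transcripts approached 1, the dim end, by 230 min, and the half-life then depends on the floor that is assumed. With the 5th percentile of the array as a fixed floor, the means were 49.1 min for Ppp1r15b, 64.7 for Trib3, 67.3 for Cebpb, 69.5 for Chac1, 72.3 for Atf4, 73.3 for Cebpg, 88.2 for Ppp1r15a, 91.7 for Ddit3 and 93.1 for Eif2ak3. No fit of Asns met the criteria on that floor either. With the floor fitted, Chac1 had the shortest mean (31.7 min, against 36.7 for Ppp1r15b), and with a straight line through the log2 ratios Atf4 had (97.2 min, against 102 for Ppp1r15b). The order among the faster transcripts, the first place included, therefore depends on the floor and the form of the curve.

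The time at which the losses became measurable was tested against the 0 min arrays, which all 4 comparisons share. At 10 min none of the 10 transcripts had changed, by limma with adjustment over all expressed probe sets or at an unadjusted p under 0.05, and the share of expressed probe sets that were lower was 0%. At 50 min Chac1 and Ppp1r15b were lower, the latter with a log2 change of -0.97 (SE 0.21; adjusted p = 0.00221), where 1.99% of expressed probe sets were (249 of them, and 130 without the replicate block). Atf4, with a log2 change of -0.63, did not pass at that time (adjusted p = 0.124, limma). Without both low arrays 7 of the 10 were lower at 50 min, along with 1069 of the 12544 expressed probe sets. Without replicate 1 only 1 of the 10 was lower, along with 102 probe sets, and without replicate 2 also 1, along with 135.

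At 110 min 9 of the 10 were lower against 84.8% of expressed probe sets, with the lowest log2 changes in Ppp1r15b (-2.04), Cebpb (-1.76) and Atf4 (-1.73). Asns, at -0.28, did not pass (adjusted p = 0.212, limma). At 230 min all 10 were lower, against 94.3%, and Atf4 (-2.37), Ppp1r15b (-2.25), Cebpb (-2.10) and Cebpg (-2.03) had log2 changes beyond -2. Whether a transcript's slope after 50 min differed from its slope before was tested with a bend at 50 min. None of the 10 passed, where 0.470% of expressed probe sets became shallower (59 of them, and 21 without the replicate block), and 2 had an unadjusted p under 0.05, both shallower later: Ppp1r15b by 1.12 log2 per hr (adjusted p = 0.0596, limma) and Chac1 by 0.95 (adjusted p = 0.129, limma).

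**Figure D3:**
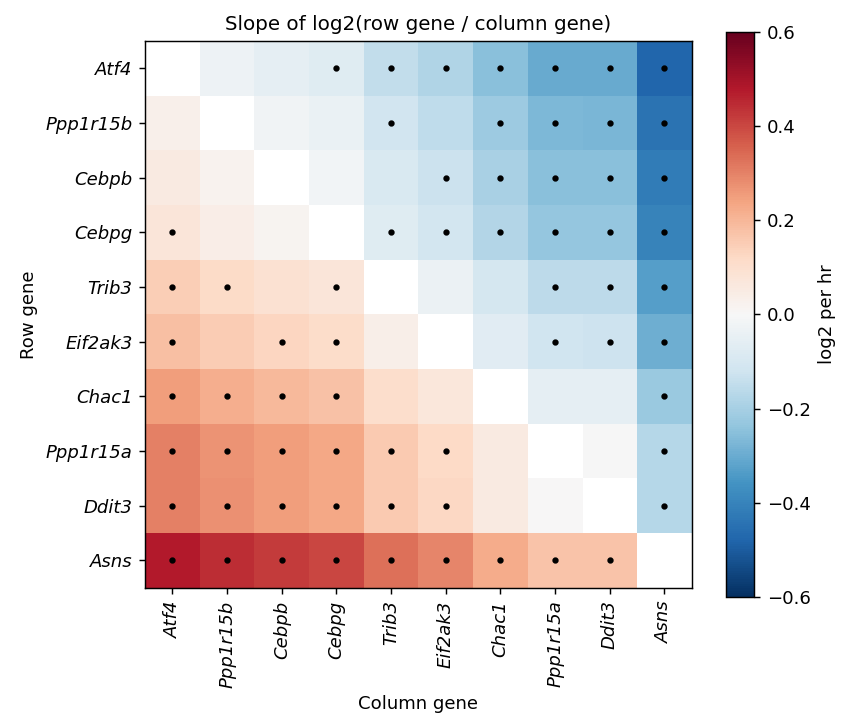
Mean slope in time of the log2 ratio between the row gene and the column gene (log2 per hr, color scale) over the 3 time courses, with genes ordered from the steepest fall to the least steep; pairs with a black dot passed the exact permutation test after adjustment over 45 pairs. The column of Asns stands apart, with Atf4 minus Asns at -0.47.

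The rates of the 10 transcripts were also set against each other within each time course, since the ratio of 2 transcripts on 1 array does not depend on how that array was scaled. Of 45 pairs, 32 differed in slope (exact permutation of the time points within replicates, adjusted over the 45), including all 9 pairs with Asns. With replicate 1 or replicate 3 left out 21 of the 45 differed, 6 of them with Asns. Atf4 minus Asns was -0.47 log2 per hr, and the raw p of 5.79e-07 is the smallest that these permutations can give. Along the order of slopes, the neighbours Atf4 and Ppp1r15b, Ppp1r15b and Cebpb, and Cebpb and Cebpg did not differ beyond their spread (adjusted p = 0.602 to 0.669, exact permutation test). Nor did Trib3 and Eif2ak3, Eif2ak3 and Chac1, Chac1 and Ppp1r15a, or Ppp1r15a and Ddit3 (adjusted p = 0.375 to 0.954, exact permutation test). Cebpg fell faster than Trib3 (adjusted p = 0.0469, exact permutation test) and Ddit3 faster than Asns (adjusted p = 0.0204, exact permutation test). The latter did not pass without replicate 1 (adjusted p = 0.0667), without replicate 3 (0.139) or without the 0 min arrays (0.128). The pair of Cebpg and Trib3 did not pass without replicate 1 either (adjusted p = 0.298, exact permutation test). In replicate 2 the slope of Trib3 minus that of Cebpg was 0.0003.

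With 1 subtracted from every ratio 21 of the 45 pairs differed, again with all 9 pairs of Asns among them, and the pair of Ddit3 and Asns passed (adjusted p = 0.00181, exact permutation test) while Cebpg and Trib3 did not (adjusted p = 0.869). With 1 added to every ratio 32 pairs differed, 6 of the 9 with Asns among them, and Asns did not differ from Ddit3, Chac1 or Ppp1r15a beyond the spread (adjusted p = 0.112 to 0.175, exact permutation test). On the scale with 1 subtracted, the slopes of Trib3 and Cebpg were the steeper ones when set against Atf4, by 0.09 and 0.08 log2 per hr. Neither difference passed the test (adjusted p = 0.0674 and 0.0565, exact permutation test). The slower loss of Ppp1r15a than of the brighter Ppp1r15b probe set passed on all 3 scales, as did that of Asns than of Atf4, whereas the order among Atf4, Trib3 and Cebpg changed.

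**Figure D4:**
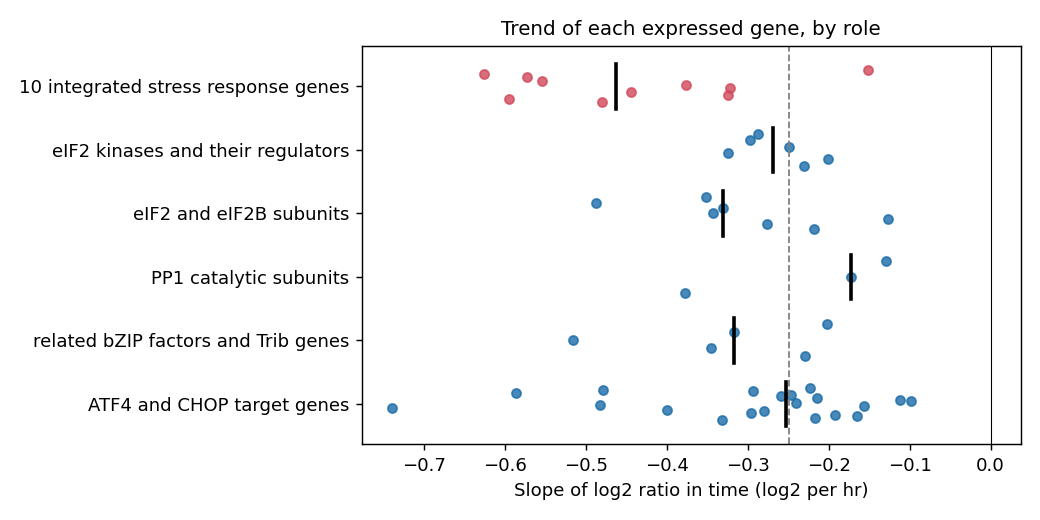
Trend slope (log2 per hr) of every expressed gene in the 10 integrated stress response genes and in 5 lists of related genes, with 1 point for each gene a black bar at the median of each list and a dashed line at the median of all expressed probe sets. The median of the 10 is -0.46, against -0.17 to -0.33 for the related lists.

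The wider pathway was described from lists of related genes by the same trend, with the median of all expressed probe sets at -0.25, and the 96.4% of them that fell, as the reference. Counts of genes that fell are close to that share in every list. All 6 expressed genes of the other eIF2 kinases and their regulators fell, at a median of -0.27, while on the scale of the 75th percentile 0 fell and 3 rose. They covered a narrow range, from Eif2ak4, the amino acid sensing kinase GCN2 (-0.32), Eif2ak1, the heme-regulated kinase (-0.30), and Dnajc3, an inhibitor of PERK (-0.29), to Eif2ak2, the double-stranded RNA kinase PKR (-0.25), Impact, an inhibitor of GCN2 (-0.23), and Gcn1, its activator (-0.20). Eif2ak3, at -0.44, was thus the steepest of the kinase genes on the array, a difference that was not tested. Of 8 genes for eIF2 and its exchange factor eIF2B, 7 were matched and all 7 fell, at a median of -0.33, against 1 that fell and 2 that rose on the scale of the 75th percentile. Eif2b2 (-0.49), Eif2b1 (-0.35) and Eif2b4 (-0.34) were the lowest, and Eif2b5 (-0.13), Eif2s3x (-0.22) and Eif2s2 (-0.28) the highest.

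The 3 catalytic subunits of protein phosphatase 1, which PPP1R15A and PPP1R15B direct to eIF2, fell at a median of -0.17: Ppp1cc at -0.38, Ppp1cb at -0.17 and Ppp1ca at -0.13. On the scale of the 75th percentile 0 fell and 2 rose. Of 8 related bZIP and Trib genes 5 were expressed, and all 5 fell, at a median of -0.32, against 1 that fell and 1 that rose on the scale of the 75th percentile. These were Jdp2 (-0.52), Trib1 (-0.35), Cebpa (-0.32), Trib2 (-0.23) and Atf5 (-0.20). Atf3, another stress-induced factor, Cebpd and Cebpe were not above the array median at 0 min.

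Of 25 other known targets of ATF4 and CHOP, 23 were matched and 20 were expressed. 19 fell, at a median over the 20 of -0.25, the same to 2 decimals as that of all expressed probe sets. The range within the list was wide. Slc38a2, a neutral amino acid transporter (-0.74), Herpud1, a component of protein degradation at the endoplasmic reticulum (-0.59), and Sesn2, an inhibitor of mTORC1 signaling (-0.48), were the steepest. The least steep were Shmt2 (-0.16, adjusted p = 0.00524, limma), Phgdh (-0.11, adjusted p = 0.0376, limma) and Psat1 (-0.10), which did not pass (adjusted p = 0.0723, limma). All encode enzymes of serine and glycine synthesis, but Psph, of the same route and named here after its value was seen, had a slope of -0.24, near the median of the list. Asns, at -0.15, lay between Shmt2 and Phgdh. Scaled to the 75th percentile of each array, 5 of the 20 fell and 10 rose, where 1964 and 6272 of the 12544 expressed probe sets did.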

How the data were processed

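The authors hybridized 1 array per sample and divided each probe set value by the 5th percentile of its array. The deposited values are these linear ratios. The summary method and any background correction were not given in the sources used here. A loss shared by most of the brighter probe sets stays in values scaled this way, so other scalings were tried. Gene names came from the platform annotation. Of the probe sets, 21044 carried 1 symbol, 1492 several and 2639 none. The members, lists and alternatives were chosen with earlier results of these data known.

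Log2 ratios were fitted with limma 3.58.1 (R 4.3.3) with the replicate as a block, once with time as a line, once as factor levels and once with a bend at 50 min. P-values were adjusted by Benjamini-Hochberg over 12544 expressed probe sets at a threshold of 0.05. The limma p-values draw on the spread of all probe sets fitted together, so the size of the smallest ones depends on the level filter. The trend of Slc38a2, for instance, had an unadjusted p of 2.15e-21 with the filter and 3.04e-09 without it (limma). The replicate number was used as a block because each number is 1 time course. Deviations from the time means correlated above 0.1 in 29 of 30 same-numbered array pairs (median r 0.36) and in 14 of 60 others (median -0.22). Such deviations cancel within each time, so the negative median is tied to the positive one and is not separate evidence. Half-lives came from a nonlinear least squares fit of an exponential to the ratios of each replicate, with 3 residual degrees of freedom. The decay rate was found by a grid search (numpy 2.4.6), and scipy 1.17.1 gave the t and F distributions. Pairs were tested by 1728000 two-sided exact permutations of time within replicates. The genes named are the 10, the 3 lowest and 3 highest slopes of each list, and the 3 nearest patterns of each of Atf4, Ddit3, Ppp1r15a and Cebpb. The scripts were tested on simulated data. Alternatives covered the scaling, the level filter, the variance trend, the block, each replicate, the first and last time, the 2 low arrays, the floor, the offset before the log and the choice of probe set. No array pair held identical values. No column of another sample was present. The number of arrays, 3 per time, limits the precision.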

Additional observations from a re-analysis of the deposited data

How the results depend on the processing

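The values below are for the 10 transcripts. Without the replicate block all 10 still fell in the trend (11975 of all expressed probe sets, against 12097 with it), and the block changed no count among the 10. The transcripts that fell in the trend numbered 6 with arrays divided by their 75th percentile and 6 with quantile normalization, and 1 rose with the former. At 50 min, 7 were lower without both low arrays and 4 without the 110 min array of replicate 1 (1069 and 574 of the 12544 expressed probe sets). With a replicate left out 1 to 2 were lower, where 102, 135 and 64 of all expressed probe sets were without replicates 1, 2 and 3. At 110 min, 5 were lower with the 75th percentile (1218 of all expressed probe sets fell and 3054 rose). A shallower slope after 50 min was called for 3 with the 75th percentile, 1 with the median, 2 with a variance trend, 2 without both low arrays, 2 without the 110 min array of replicate 1 and 1 without the 230 min array of replicate 2, where 278, 73, 129, 110, 97 and 64 of all expressed probe sets were called. Reliable half-lives numbered 0 with the median, 1 with the 75th percentile, 2 with quantile normalization, 0 when the fit began at 10 min, 3 when it ended at 110 min, 2 without both low arrays, 0 with a fitted floor, and 2 to 3 with a replicate left out. With a replicate left out each of the remaining ones had to meet the criteria, so that count could not rise. Leaving out an array of a time course, or fitting the floor, left fewer residual degrees of freedom. The share of all expressed probe sets was computed only for the deposited ratios with all arrays and no floor (11.2%). Whether these lower counts are particular to the 10 transcripts is therefore not known. Pairs that differed numbered 21 with 1 subtracted from the ratios and 21 to 31 with a replicate, or 1 array of it, left out. Asns changed sign most often: its trend was 0.17, 0.0295 and 0.0296 with the 75th percentile, the median and quantile normalization, its change at 110 min 0.58, 0.25 and 0.19, and its change at 230 min 0.64, 0.18 and 0.085. With a replicate left out, Asns ranged from -0.0123 to 0.219 at 50 min and from -0.48 to 0.0848 at 110 min, and dropping only the low 110 min array gave 0.0199. Pair differences that changed sign were Atf4 minus Trib3 (0.094), Atf4 minus Cebpg (0.0799) and Trib3 minus Cebpg (-0.0141) with 1 subtracted, Ddit3 minus Eif2ak3 (-0.0014) and Ppp1r15a minus Eif2ak3 (-0.0243) without the 230 min arrays, Trib3 minus Ppp1r15b (-0.0051) with probe sets averaged, and Cebpb minus Cebpg (-0.0543 to 0.0142 with a replicate left out). Apart from these counts, 923 single values kept their direction and their side of the threshold or moved by less than the spread, 98 lost the threshold, 20 gained it, 48 moved beyond the spread and 19 changed sign. Subtracting 1, and leaving out the 230 min array of replicate 2 or both low arrays, were chosen after seeing the data. The cause was not tested for any of these changes. Signals near the dim end limit what can be told after 110 min for the fast transcripts, and the last time point limits it for Asns.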

Other observations

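The expressed genes whose log2 changes lay nearest to those of 4 of the transcripts, over the 12 later arrays and among 9878 genes, were picked by the root mean square difference. They were Tiam2 (0.15), Abl1 (0.16) and Epha2 (0.17) for Atf4, and Polq (0.11), Prdm2 (0.12) and Hoxa11 (0.13) for Ddit3. For Ppp1r15a they were Lmbr1l (0.12), Ebf3 (0.12) and Fbxl8 (0.12), and for Cebpb they were Il17ra (0.12), Foxf2 (0.14) and Mettl6 (0.15). None of these is among the 10 transcripts or the related lists.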
